A study of Mus musculus with 6 samples.

Results

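Transcript levels of 8 genes that are commonly used to mark Schwann cells and myelin were read in whole mouse corneas with experimental dry eye. The genes were Mbp, Pmp22, Sox10, S100b, Ncam1, L1cam, Scn7a and Cnp. They were chosen by gene symbol, and all 8 were among the 17794 genes of the deposited table, with reads in every library, and passed the filter on low counts. Schwann cells are the glia of peripheral nerves. Some wrap axons in myelin, a lipid-rich membrane held together by a small set of proteins, and others hold bundles of thin axons without myelin. The cornea is one of the most densely innervated tissues of the body: its sensory axons lose their myelin soon after they enter the stroma and run on with non-myelinating Schwann cells towards the epithelium.

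In both groups a dry eye model had been made with benzalkonium chloride (BAC), a preservative with detergent action. One group then received vehicle and the other luteolin, a flavone found in plants, for 10 days. The label of the second group reads "luteolin -control treated" and is taken here as luteolin. RNA sequencing gave 3 libraries of each group from whole corneas, whose cell type is labelled "multiple", and corneas without benzalkonium chloride were not analysed here. Strain, age, sex and whether each library came from a separate animal are not in the labels, so a p-value here reflects the spread between libraries alone, and that spread may be technical. In whole tissue, fewer cells of a type and less RNA per cell cannot be told apart.

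Library totals lay between 16084855 and 16469699 estimated counts. The tissue label was checked with 8 corneal epithelial genes, of which Krt12, the keratin of that epithelium, stood at 12532 to 27436 CPM (counts scaled to a common library size) in the 6 libraries. The libraries also differed in skeletal muscle transcripts in a way that crossed the groups: 12 muscle genes summed to 102, 173 and 15.01 CPM in vehicle 1, 2 and 3 and to 17.4, 17.0 and 82.0 CPM in luteolin 1, 2 and 3.

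The 8 genes did not move as one group. With luteolin, Sox10, S100b, Scn7a, Pmp22 and Cnp fell, Mbp and L1cam rose, and Ncam1 did not pass the test (edgeR's quasi-likelihood test with Benjamini-Hochberg adjustment over 13838 genes, threshold 0.05). Against these 5 lower and 2 higher members, 30.4% of all tested genes were lower and 28.5% were higher at the same threshold. The median log2 fold change (luteolin minus vehicle) was -0.72 over the members and -0.02 over all tested genes. The groups did not overlap for 5 lower and 2 higher members, and of all tested genes 33.7% lay wholly lower and 33.8% wholly higher with luteolin. Calls and separated groups were thus common across the table. Scaling bore on the balance of calls: 51.6% of all called genes were lower, against 63.6% with library sizes alone and 61.9% with upper quartile factors. Those scalings moved the median of all tested genes to -0.13 and -0.11 on the log2 scale and left 5 members lower and 2 higher. The count of lower members was 2 without luteolin 1 and 4 or 5 without any other single library, and the count of higher members was 2 without any single library.

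**Figure D1:**
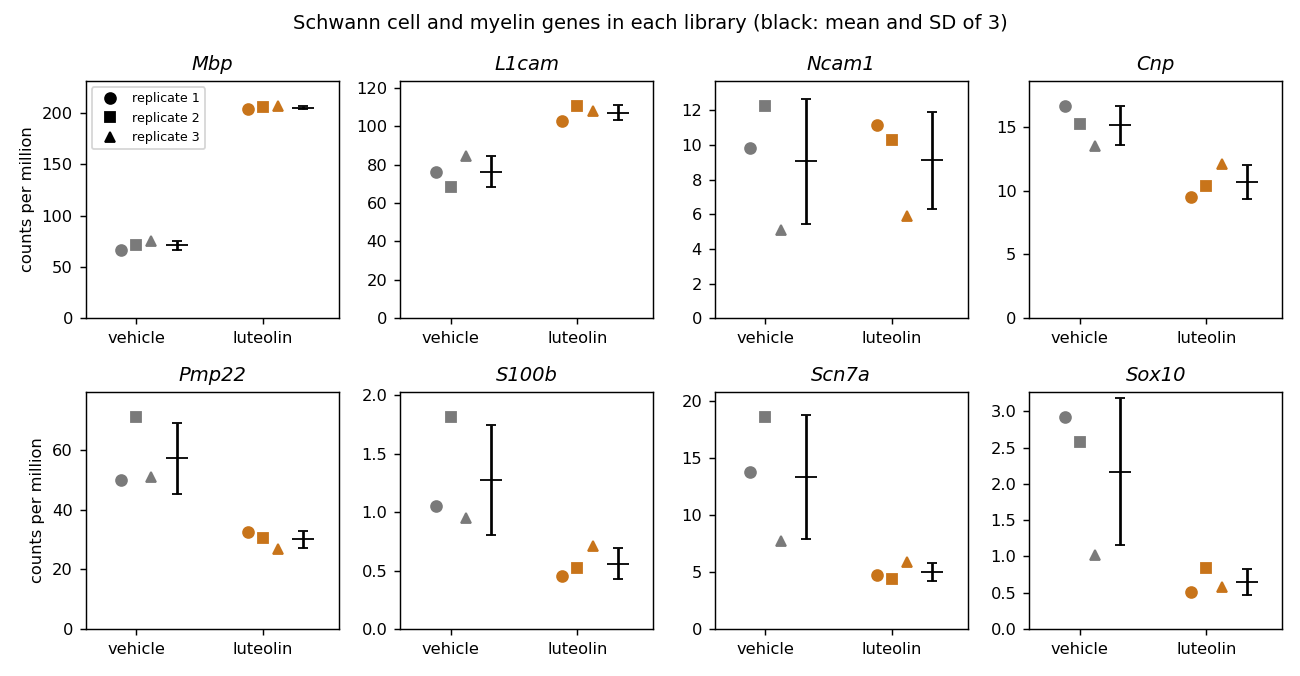
CPM of the 8 genes in each library (y axis, linear from 0; x axis, treatment group), with a symbol for each replicate number and the mean and SD of 3 libraries in black. The groups do not overlap for any gene except Ncam1, whose lowest library is replicate 3 in both groups.

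Levels compared per length, as deposited TPM (transcripts scaled by length to a common total), spanned a wide range. With vehicle the order was Pmp22 (54.7 ± 11.6, SD, n = 3), Mbp (26.8 ± 1.24), L1cam (22.7 ± 2.12), Cnp (10.9 ± 1.27), Scn7a (2.79 ± 1.16), Ncam1 (2.203 ± 0.918), S100b (1.39 ± 0.519) and Sox10 (1.33 ± 0.635). The ranges of the last 4 genes, Scn7a, Ncam1, S100b and Sox10, all overlapped each other. Within each vehicle library, however, Scn7a stood above Ncam1, and Ncam1 above S100b and Sox10. The order of S100b and Sox10 was not resolved: S100b was higher in vehicle 2 and 3 and lower in vehicle 1. With luteolin Mbp came first at 68.5 ± 0.187 TPM, followed by L1cam (31.95 ± 0.896), Pmp22 (28.7 ± 3.04), Cnp (7.66 ± 0.920), Ncam1 (2.24 ± 0.715), Scn7a (1.05 ± 0.163), S100b (0.607 ± 0.136) and Sox10 (0.393 ± 0.102). Here L1cam and Pmp22 overlapped, with a lowest L1cam level of 31.0 and a highest Pmp22 level of 31.5 TPM, both in luteolin 1. S100b and Sox10 also overlapped, with a lowest S100b level of 0.50 and a highest Sox10 level of 0.51 TPM. Within each luteolin library, however, S100b stood above Sox10.

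The sequence before the start of transcription was read for 5 of the 8 members from RefSeq's promoter table (build GRCm38.p6), which held 9 windows for them: 1 each for Scn7a, S100b and Cnp, 2 for L1cam and 4 for Pmp22. Sox10, Ncam1 and Mbp were not searched. Windows of 250 bases before the start were searched on both strands for ACAAAG and ACAATG, the core letters that Sox10 and its relatives bind, and for GCGNGGGCG, the letters bound by Egr2 and its relatives. A SOX form was found in 1 of the 9 windows, that of Cnp, and the EGR form in 1, that of Scn7a. The 9 windows are not all separate: the 2 of L1cam share most of their bases, and 2 of Pmp22 overlap at their ends. Either SOX form was in 25.2% and the EGR form in 4.7% of all 32851 windows listed. The windows of S100b and Pmp22, which also fell, held neither form. Those of the lower members Scn7a and Cnp are shown, with a window of L1cam, which rose and held neither form. The shown windows run 5′ to 3′ on the gene's strand up to the first annotated exon base, with the match in capitals. They lie at chr2:66784915-66785160 (minus strand, Scn7a), chr11:100574689-100574903 (plus strand, Cnp) and chrX:73880835-73881084 (minus strand, L1cam).
Scn7a: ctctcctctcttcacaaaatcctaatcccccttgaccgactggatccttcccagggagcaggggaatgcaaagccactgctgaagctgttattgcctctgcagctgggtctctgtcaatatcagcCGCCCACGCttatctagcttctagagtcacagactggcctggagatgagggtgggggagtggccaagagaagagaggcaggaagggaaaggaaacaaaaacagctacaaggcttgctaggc
Cnp: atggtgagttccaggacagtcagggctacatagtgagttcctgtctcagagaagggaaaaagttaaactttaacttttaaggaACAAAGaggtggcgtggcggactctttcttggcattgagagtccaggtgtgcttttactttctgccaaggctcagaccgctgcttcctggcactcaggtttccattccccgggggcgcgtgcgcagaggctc
L1cam: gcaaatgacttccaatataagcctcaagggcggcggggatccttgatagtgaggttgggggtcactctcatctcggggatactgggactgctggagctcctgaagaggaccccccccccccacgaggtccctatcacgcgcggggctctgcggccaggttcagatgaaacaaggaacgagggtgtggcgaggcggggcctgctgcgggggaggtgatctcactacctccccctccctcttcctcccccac
The match in Scn7a reads as the form on the other strand and begins 125 bases before the start, and the match in Cnp begins 167 bases before the start. A match is a stretch of letters and not a measured binding site.

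Sox10 (gene ID 20665) encodes the transcription factor that Schwann cells need at every stage of their development and that switches on many myelin genes. Its level was 2.92, 2.58 and 1.01 CPM in vehicle 1, 2 and 3 and 0.516, 0.845 and 0.579 CPM in luteolin 1, 2 and 3. Every luteolin library lay below every vehicle library, but vehicle 3 was much nearer to luteolin than vehicle 1 and 2 were. The fall was 3.33-fold, or -1.74 on the log2 scale (SE 0.461, edgeR adjusted p = 0.0143). With the muscle genes as a covariate it was -1.29 (edgeR adjusted p = 0.0498). These levels rest on few reads, 50, 44 and 17 counts with vehicle and 8, 13 and 9 with luteolin. The call was lost without vehicle 1, without luteolin 1 or without luteolin 3, with edgeR adjusted p from 0.0504 to 0.0555 and log2 fold changes from -1.47 to -1.67.

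S100b (gene ID 20203) encodes a calcium-binding protein that is abundant in Schwann cells and is widely used to stain them. It stood at 1.05, 1.81 and 0.953 CPM with vehicle and at 0.451, 0.520 and 0.708 CPM with luteolin. Vehicle 2 was the highest library, and the gap between the groups was narrow. The fall was 2.26-fold (log2 fold change -1.17, SE 0.384, edgeR adjusted p = 0.0320), from 18, 31 and 16 counts with vehicle to 7, 8 and 11 with luteolin. Over the alternatives this call was lost more often than that of any other member, in 6 of 16 alternatives: without vehicle 2 (log2 fold change -0.83), luteolin 1 or luteolin 2, with the muscle genes as a covariate (-0.91), with the replicate number as a block (edgeR adjusted p = 0.0504) and with DESeq2 (adjusted p = 0.0904).

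Scn7a (gene ID 20272) encodes a sodium channel protein, also called Nax, that is gated by sodium concentration and is found in non-myelinating Schwann cells and in some neurons and muscle. Its level was 13.8, 18.6 and 7.69 CPM with vehicle and 4.71, 4.42 and 5.92 CPM with luteolin. The vehicle libraries were spread 2.42-fold from lowest to highest and the luteolin libraries 1.34-fold, with no overlap. The fall was 2.66-fold (log2 fold change -1.41, SE 0.318, edgeR adjusted p = 0.00715). It passed in all 17 alternatives, with log2 fold changes from -1.10 to -1.71 when single libraries were left out.

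Pmp22 (gene ID 18858) encodes a membrane protein of compact peripheral myelin whose gene dosage is critical for nerve function, and which fibroblasts, endothelium and epithelia also express. It stood at 49.9, 71.2 and 51.0 CPM with vehicle and at 32.7, 30.5 and 27.0 CPM with luteolin. Vehicle 2 stood above the other vehicle libraries, and all luteolin libraries were lower. The fall was 1.91-fold (log2 fold change -0.93, SE 0.151, edgeR adjusted p = 0.00169), and it passed in all 17 alternatives. The summed level of 11 genes of keratocytes, the cells of the corneal stroma, and of fibroblasts was highest in the same library. The sum, to which Dcn, Col1a1, Col1a2 and Lum gave most, was 5096, 9060 and 3609 CPM in vehicle 1, 2 and 3 and 1960 to 4414 CPM with luteolin. Of the 11, 6 were lower and 5 did not pass. Kera, the keratocan gene that defines keratocytes, was higher in luteolin 1 and 2 than in any vehicle library: it stood at 66.2, 251 and 25.2 CPM with vehicle and at 339.6, 327 and 155 CPM with luteolin (log2 fold change 1.26, edgeR adjusted p = 0.179). Fbln1 was highest in vehicle 3. Being highest in vehicle 2 was not particular to these genes. Leukocyte markers summed to 621, 1023 and 593 CPM in vehicle 1, 2 and 3, and vessel markers to 149, 236 and 141 CPM. Sums of the muscle and corneal endothelial genes were also highest in vehicle 2. The part of keratocytes, fibroblasts, leukocytes and vessels in the fall of Pmp22 was not tested.

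Cnp (gene ID 12799) encodes CNPase, an enzyme of the cytoplasmic channels of myelin that many other cells hold at lower levels. It stood at 16.6, 15.2 and 13.5 CPM with vehicle and at 9.48, 10.3 and 12.1 CPM with luteolin. The lowest vehicle and the highest luteolin library were close, and the fall was the smallest among the lower members, 1.42-fold (log2 fold change -0.51, SE 0.135, edgeR adjusted p = 0.0145). The call was lost without luteolin 1 (log2 fold change -0.44, edgeR adjusted p = 0.0516).

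Mbp (gene ID 17196) encodes myelin basic protein, which glues the inner faces of the myelin membrane together. It moved the other way and had the smallest p of the 8. Its level was 66.3, 71.8 and 75.1 CPM with vehicle and 204, 206 and 207 CPM with luteolin. The libraries of each group lay close together and far from the other group. The rise was 2.89-fold (log2 fold change 1.53, SE 0.0626, edgeR adjusted p = 2.79e-05), with a log2 fold change of 1.48 to 1.56 when single libraries were left out. Mbp and Sox10 were the least alike of the 28 pairs of members: their log2 CPM profiles over the 6 libraries, each centred on its own mean, differed by 1.59 (root mean square).

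The Mbp locus is known to make more than the classic myelin transcripts. A start far upstream gives the golli transcripts, which are used in leukocytes, neurons and other cells without myelin. In the GENCODE M21 annotation, which is of another build than the authors' and was used for lengths only, Mbp had 16 transcript models. Of these, 4 began at the upstream start, 79.3 kb before the nearest of the other 12. The longest model, 4797 bases, began upstream, the next longest had 2492 bases, and no model that began downstream was over 2070 bases.

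Each deposited FPKM (a fragment count scaled by depth and transcript length) divides a count by a length, so count and FPKM together give the length that the authors' values imply for a gene in a library. For Mbp this length was 3801, 3723 and 4060 bases in vehicle 1, 2 and 3 and 4400, 4396 and 4403 bases in luteolin 1, 2 and 3. All 6 values exceeded 15 of the 16 transcript models, and the luteolin values were nearly identical and longer than any with vehicle. The models are given as full lengths. Whether the authors' FPKM used full lengths or ones shortened for fragment size is not given in the sources used here. The mean was 13.9% longer with luteolin (3862 ± 176 and 4400 ± 3.65 bases, SD, n = 3). The exact two-sided permutation test gave p = 0.1, the smallest value that 3 libraries against 3 allow, and S100b, L1cam and Cnp, whose lengths also did not overlap between groups, gave the same p with far smaller differences. Of 9743 genes with at least 100 counts and 1 FPKM in every library, 2.48% had non-overlapping groups and a length greater with luteolin by over 0.1 on the log2 scale, and 0.842% had a ratio as large as that of Mbp. The other 7 members differed between groups by at most 1.28% in mean length. FPKM values have 2 decimals, which limits the lengths of Sox10, S100b, Scn7a and Ncam1, whose lowest FPKM were 0.21, 0.32, 0.6 and 0.87. On the FPKM scale, which divides by these lengths, the rise of Mbp was 1.23 on log2(FPKM + 0.1) (limma-trend, adjusted p = 0.000140). That scale also lacks the TMM factors, so its gap from the 1.53 of the main fit mixes length with scaling. With library sizes alone in edgeR the rise of Mbp was 1.42. The rise of L1cam, whose lengths hardly differed, went from 0.49 in the main fit to 0.37 on log2(FPKM + 0.1). The share of each Mbp transcript was not measured here.

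**Figure D2:**
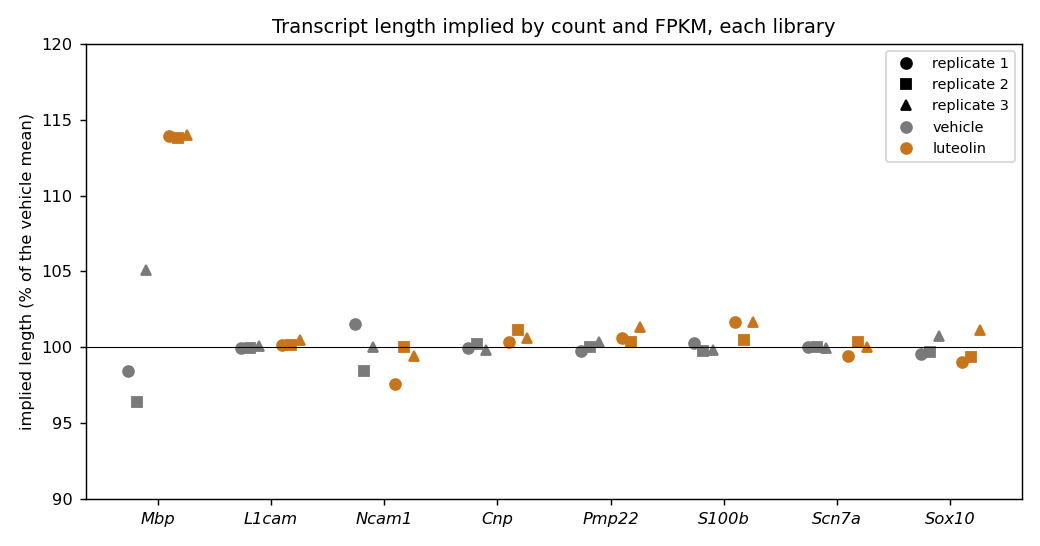
Transcript length implied by count and FPKM for the 8 genes, as a percentage of the vehicle mean of that gene (y axis, from 90 to 120) in vehicle (grey) and luteolin (orange) libraries, with a symbol for each replicate number. Mbp is the one gene whose luteolin libraries stand far above 100, near 114.

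L1cam (gene ID 16728) encodes a cell adhesion molecule of axons and of non-myelinating Schwann cells that some epithelia also use. It stood at 76.3, 68.5 and 84.4 CPM with vehicle and at 103, 110.3 and 108 CPM with luteolin. The groups did not overlap, and the rise was 1.40-fold (log2 fold change 0.49, SE 0.0828, edgeR adjusted p = 0.00210), which passed in all 17 alternatives. Of the 8 corneal epithelial genes 7 rose too, and the list summed to 45814 to 53980 CPM with vehicle and 78292 to 80870 CPM with luteolin. What part the epithelium had in the rise of L1cam and Mbp was not tested.

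Ncam1 (gene ID 17967) encodes the neural cell adhesion molecule, which non-myelinating Schwann cells, muscle, corneal endothelium and some lymphocytes carry. It was 9.81, 12.2 and 5.12 CPM with vehicle and 11.2, 10.3 and 5.92 CPM with luteolin. The groups overlapped throughout, and in both of them replicate 3 was the lowest library. The log2 fold change was 0.01 (SE 0.352, edgeR adjusted p = 0.985), with a 95% interval from -0.82 to 0.83. In folds this runs from 0.568 to 1.78, and a difference inside that range was not excluded here. Of 5 corneal endothelial genes, chosen after the values of Ncam1 were seen, 1 was lower and 4 did not pass. They summed to 251, 273 and 146 CPM with vehicle and to 266, 203 and 101 CPM with luteolin, again lowest in replicate 3 of both groups. The 12 muscle genes were, like Ncam1, lowest among the vehicle libraries in vehicle 3, but among the luteolin libraries they were highest in luteolin 3, where Ncam1 was lowest. The part of these cell types in the level of Ncam1 was not tested.

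**Figure D3:**
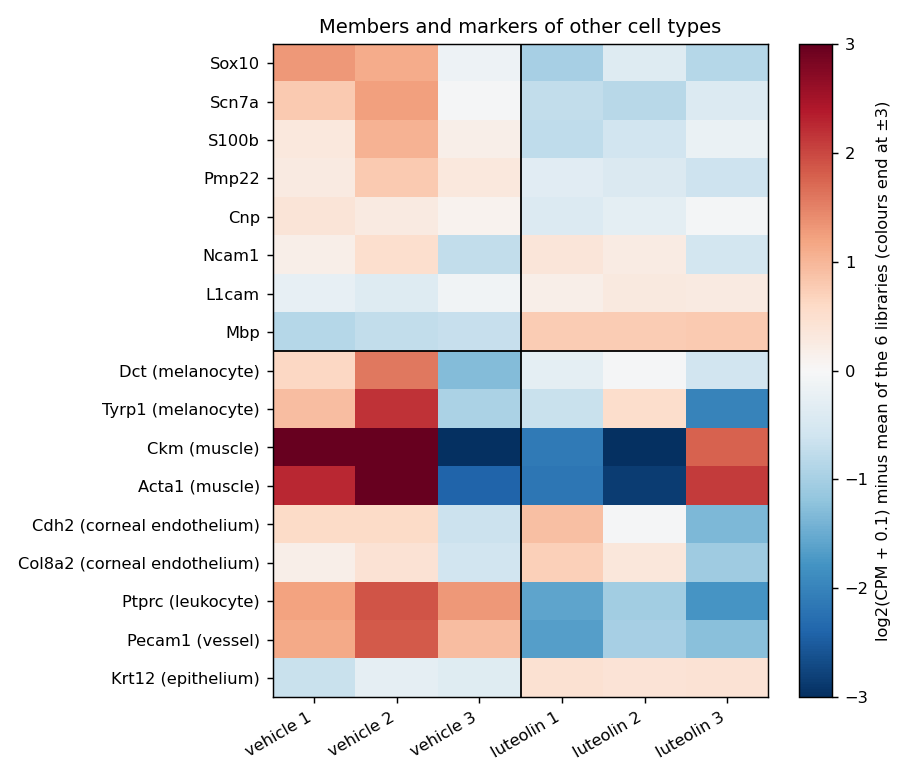
Level of the 8 members and of 1 or 2 markers of other cell types in each library, as log2(CPM + 0.1) minus the mean of the 6 libraries (colour scale from -3 to 3, beyond which colours are at their end). Sox10 and Scn7a are near the mean in vehicle 3 and above it in vehicle 1 and 2, and Ncam1 is below its mean in replicate 3 of both groups.

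Genes whose pattern was closest to that of 2 members were found by the same root mean square difference over the 6 libraries, among 10885 genes with a mean of at least 5 CPM. Among the 3 closest to Sox10 were Ccl21a (0.26), a chemokine of lymphatic vessels and lymphoid tissue whose counts had decimals in all 6 libraries and are uncertain because near-identical copies of the gene exist, and Slco2b1 (0.26), an organic anion transporter. Both were, like Sox10, lower in vehicle 3 than in vehicle 1 and 2 and highest among the luteolin libraries in luteolin 2. For Mbp the closest genes were Nek3 (0.03), a kinase, Cobl (0.04), an actin nucleator, and Aif1l (0.05), an actin-binding protein, none of them a myelin gene. The closest pair of members was Pmp22 and S100b (0.26), with S100b and Scn7a almost as close (0.27). The log2 CPM of these profiles used a prior count of 2, which shrinks the changes of genes with few counts, such as S100b.

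Other genes of the lineage also went both ways. Lists of regulators, myelin proteins, enzymes of myelin lipids and genes of non-myelinating or repair Schwann cells held 45 measured genes, of which 33 had enough reads to test. Of these 12 rose, 13 fell and 8 did not pass. At the same threshold 28.5% of all tested genes were higher and 30.4% were lower, so calls both ways were common across the table. The median of the 33 tested genes was -0.46 on the log2 scale. Without a filter on low counts 16 genes were lower and 12 higher. With limma-trend on log2(FPKM + 0.1) 16 were lower and 10 higher. The genes with too few reads to test, all at low levels, had lower means with luteolin except Gjb1, so the tally of tested genes leaves these out.

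Among 9 tested regulators and receptors 3 rose and 3 fell. Erbb3 and Erbb2, which form the neuregulin receptor of Schwann cells and are also receptors of epithelia, were 1.68-fold and 1.76-fold higher (edgeR adjusted p = 0.000163 and 7.69e-05). Erbb3 averaged 169 ± 13.1 CPM in the vehicle and 285 ± 2.94 CPM in the luteolin libraries (SD, n = 3). Zeb2, a repressor that Schwann cells need for myelination and that leukocytes and fibroblasts also express, fell by 2.39 on the log2 scale, with 25.9 ± 5.28 CPM in vehicle and 4.93 ± 1.04 CPM in luteolin libraries (SD, n = 3). Egr2, the zinc finger factor that works with Sox10 on myelin genes, was named after its values were seen. It stood at 1.75, 3.75 and 2.09 CPM with vehicle and at 0.387, 1.10 and 0.450 CPM with luteolin (log2 fold change -1.95, SE 0.486, edgeR adjusted p = 0.0110). Its counts had decimals in 5 libraries, so some of its reads may have been shared with other genes.

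Of 10 tested myelin proteins 3 rose, 3 fell and 4 did not pass. Cadm4, an adhesion molecule of the Schwann cell surface, fell by 0.99 on the log2 scale (SE 0.127, edgeR adjusted p = 0.000626). Mal, a raft protein of myelin and of the apical membrane of epithelia, rose 1.67-fold from 2770 ± 406 CPM (SD, n = 3). All 3 tested enzymes of myelin lipids passed: Gal3st1, which makes sulfatide, was 5.47-fold higher, Cers2, a ceramide synthase, 1.29-fold higher, and Aspa, which splits N-acetylaspartate, had a log2 fold change of -2.22.

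Of 11 tested genes of non-myelinating, immature or repair Schwann cells 4 rose, 6 fell and 1 did not pass. Gap43, a growth cone protein that Schwann cells make after injury, stood at 5.55, 8.60 and 4.35 CPM with vehicle and at 1.42, 1.10 and 1.09 CPM with luteolin. Its fall (log2 fold change -2.35, SE 0.313, edgeR adjusted p = 0.000723) was larger than the spread of either group. Gdnf, a neurotrophic factor of denervated Schwann cells, fell from 6.57 ± 0.885 to 1.40 ± 0.157 CPM (SD, n = 3). Artn, a neurotrophic factor of the same family, rose 1.87-fold.

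**Figure D4:**
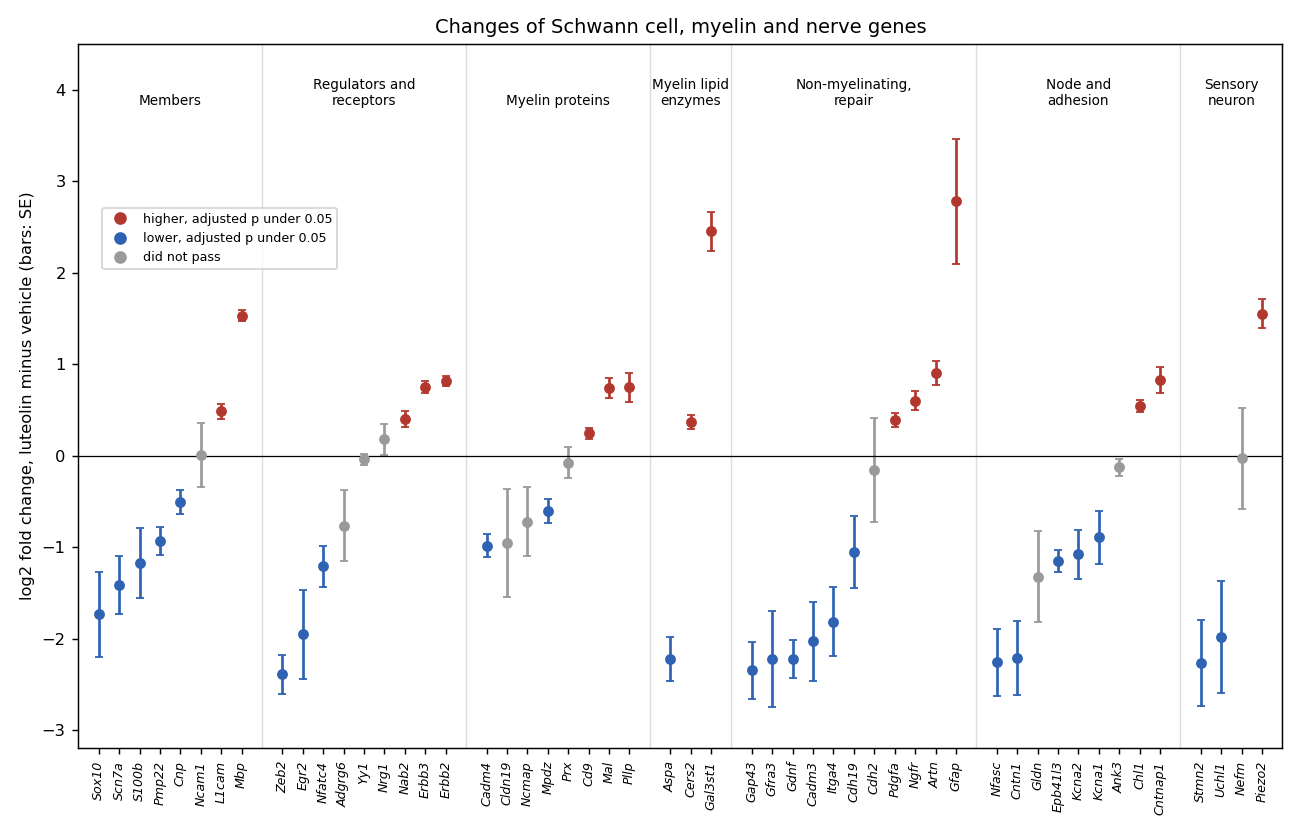
Log2 fold change, luteolin minus vehicle, with SE bars (y axis) for the members and for tested genes of 6 lists, of which some are not drawn (x axis, ordered by change within a list), in red or blue where edgeR's adjusted p was under 0.05 and grey elsewhere. The members and each list hold red and blue genes, so none moved in 1 direction, and the 3 lipid enzymes hold no grey one.

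Genes of the axon and of its contacts with glia were measured beside the members. Of 9 tested genes of the node of Ranvier and of adhesion between axon and glia 5 fell, 2 rose and 2 did not pass. Nfasc, which encodes neurofascin of the node and paranode, fell (log2 fold change -2.26), as did the scaffold gene Epb41l3 (-1.15), while the adhesion gene Chl1, a relative of L1cam, was 1.45-fold higher. Of 14 measured genes of sensory neurons 10 had too few reads to test, 9 were at 0 in at least 1 library and 3 were at 0 in all luteolin libraries. Among the 4 tested, Stmn2, a growth-associated protein of neurons, stood at 1.81, 2.05 and 0.894 CPM with vehicle and at 0.193, 0.325 and 0.450 CPM with luteolin (log2 fold change -2.27). Uchl1, a neuronal ubiquitin hydrolase, had a log2 fold change of -1.98 and lost its call without vehicle 2, luteolin 2 or luteolin 3 and with the muscle covariate. Piezo2, a mechanosensitive channel, was 2.93-fold higher.

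Other cell types that express members were followed with their own markers. Melanocytes, which also use Sox10 and S100b, were represented by 10 genes. Of the 6 tested Kit and Trpm1 rose, Mitf fell and 3 did not pass, and the list summed to 134 to 191 CPM with vehicle and 342 to 358 CPM with luteolin, most of it Kit. Of the 10, 2 were at 0 in at least 1 library. The pigment gene Dct stood at 9.17, 17.8 and 2.32 CPM with vehicle and at 4.77, 5.78 and 3.92 CPM with luteolin, so that it was lowest in vehicle 3, where Sox10 was also lowest among the vehicle libraries. Vehicle 3 was also the lowest vehicle library for the summed keratocyte, leukocyte, vessel and muscle genes. Unlike for Sox10, the groups overlapped for Dct (edgeR adjusted p = 0.189).

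Oligodendrocytes, which use Mbp, Cnp and Sox10 in the brain and optic nerve, had 4 measured markers, of which 2 were at 0 in at least 1 library and the 2 tested, Tspan2 and Enpp6, fell; the list summed to 4.47 to 7.84 CPM with vehicle and 0.580 to 0.715 CPM with luteolin. Leukocyte markers fell in 9 of 10 cases, with sums of 593 to 1023 CPM with vehicle and 255 to 329 CPM with luteolin, the exception being Itgam, which rose. Vessel markers fell in 8 of 9 cases, with sums of 141 to 236 CPM and 36.0 to 40.9 CPM. Of the 9 tested muscle genes 0 passed with edgeR, where 0 had an unadjusted p under 0.05, and DESeq2 called 2 of 11, both lower. With their mean as a covariate, Sox10, Scn7a, Pmp22 and Cnp were still lower and Mbp and L1cam higher. The part of melanocytes, leukocytes and vessels in the fall of the members was not tested.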

How the data were processed

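RNA from whole corneas, extracted with Trizol, was sequenced from Illumina TruSeq libraries (labels' protocols). Bowtie2 2.2.5, RSEM 1.2.12 and mm9 are named in the submitters' processing notes; which step each served, and whether counting used strand, is not given in the sources used here. An overlapping or antisense gene could therefore share reads with a member. The authors deposited estimated counts, normalized read counts (a signal, counts divided by one factor per library, not used here), FPKM and TPM values, per the file headers. The counts of all 8 members were whole numbers in every library. The 8 columns of group averages were left out.

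Estimated counts were rounded and fitted over the whole table with edgeR 4.0.16 in R 4.3.3 (filterByExpr with minimum count 10 and minimum total 15, which left 13838 genes, TMM factors, quasi-likelihood test, no replicate block, Benjamini-Hochberg adjustment, threshold 0.05). SE is the log2 fold change divided by the square root of F. CPM uses the TMM factors. Implied length is count divided by FPKM, scaled by the library total. Checks were made on simulated data of the luteolin against vehicle comparison (13838 genes, 50 changed per fold), where edgeR called 48% of genes changed 1.5-fold, 62% of those changed 2-fold and 94% of those changed 4-fold, and made 0 calls when nothing was changed. The simulation changed 200 genes, while 58.9% of tested genes were called in the data. These shares may therefore not hold for the real comparison.

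The members and gene lists were chosen with earlier results of these data known. Named were all members, the 3 tested genes with the smallest p of each lineage, node and neuron list, and the 3 nearest patterns of Sox10 and Mbp, model names left out. Not every gene so chosen is reported here. Egr2, the single markers named from the lists of other cell types, the corneal endothelial list and the genes in the plot of profiles were chosen after their values were seen. Alternatives were DESeq2 1.42.0, other factors, other filters, a robust fit, a block for the replicate number, limma-trend (limma 3.58.1) on log2 FPKM (pseudocounts 1 and 0.1), the mean log2 CPM of the muscle genes as covariate and leaving out each library.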

Additional observations from a re-analysis of the deposited data

How the results depend on the processing

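In the fits with all 6 libraries between 4 and 5 members were lower and 2 higher, and with each library left out in turn the number lower ran from 2 to 5. None of the 7 called members changed direction, while Ncam1, never called, ran from -0.29 to 0.29 on the log2 scale. Mbp, L1cam, Scn7a and Pmp22 passed in all 17 alternatives. Sox10 lost its call in 3, Cnp in 1 and S100b in 6 of 16. With 1 CPM required in 3 libraries S100b was not tested. The replicate block left 4 members lower and 2 higher, and called 7934 genes in place of 8157. The numbers are not known to pair the libraries: deviations of same-numbered libraries correlated at -0.15, 0.0267 and 0.0121 across genes. Library sizes in place of TMM left 5 members lower and 2 higher. Of all calls 51.6% were lower, against 66.1% and 66.5% with limma-trend on log2 FPKM (pseudocounts 1 and 0.1). Low counts limit Sox10 and S100b.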
